A study of Mus musculus with 6 samples.

Results

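The matrix metalloprotease, ADAM, ADAMTS, ADAMTSL and TIMP genes were examined in RNA-seq counts of mouse KVTR cells, labelled both a cell line and cells isolated from a clear cell renal carcinoma, after dopamine treatment and in blank cells. Members were taken by gene symbol alone, which gave 84 of the 56691 genes in the deposited table: 23 Mmp, 33 Adam, 19 Adamts, 5 Adamtsl and 4 Timp genes. Of these, 46 reached 10 or more counts in 3 or more libraries and are called expressed here (14 Mmp, 10 Adam, 14 Adamts, 4 Adamtsl and 4 Timp genes). The dopamine group had 3 libraries (dopamine 1, 2 and 3) and the blank group 3 (blank 2, blank 3 and a blank library whose column carries no number and was not tied to a numbered sample). Both groups are KVTR cells, and dopamine is the one difference between them that the labels give. No dose, duration or genotype is given in the labels. Nothing states that the libraries of a group are separate cultures, so the p-values here rest on a between-library spread that may be technical. The question put by the comparison is which of these transcripts differ in abundance after dopamine.

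These genes encode the zinc proteases that cut the extracellular matrix and the outer parts of membrane proteins, together with their inhibitors. Matrix metalloproteases (MMPs) degrade collagens, gelatin and other matrix proteins and are made as inactive zymogens. ADAMs are membrane-bound and release the outer domains of growth factors, cytokines and receptors, while ADAMTS proteases are secreted and cut proteoglycans, procollagens and other matrix proteins. ADAMTS-like proteins share the binding domains of ADAMTS proteases but have no protease domain, and TIMPs are secreted proteins that block the active sites of these enzymes. In kidney and in renal tumours the balance of these enzymes and inhibitors is known for its part in matrix turnover and invasion.

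Total counts were 16771499 to 23375622 per library. Correlations across the 15420 genes tested (log2 CPM; genes are not independent replicates) were 0.904 to 0.983 between libraries of a group and 0.898 to 0.979 between libraries of different groups. Markers of the labelled tissue were mixed: of 18 renal tubule markers, 10 reached 1 CPM in at least 1 library and 8 did not. Lrp2 lay at 87.1 to 384 CPM and Aqp1 at 14.5 to 116 CPM, whereas Pax8 lay at 0.383 to 1.15 CPM and Aqp2 had no count. Of 12 astrocyte markers, 12 reached 1 CPM in at least 1 library, with Gfap at 102, 1219 and 1316 CPM with dopamine and 1629.9, 815 and 32.4 CPM in blank. Of 6 genes listed as markers of clear cell renal carcinoma, 6 reached 1 CPM in a library, but several only just. Car9 lay at 1.09 to 2.81 CPM, Nnmt at 1.10 to 3.21 CPM and Ndufa4l2 at 0.0573 to 2.66 CPM. Angptl4 lay at 1.09 to 15.3 CPM, Egln3 at 22.7 to 39.5 CPM and Vegfa at 97.8 to 193 CPM. The cells are called KVTR cells here. Dopamine 1, blank 3 and the unnumbered blank library stood apart on marker sums. Their astrocyte sums were 1333, 2819 and 1356 CPM, against 6404 and 5847 CPM in dopamine 2 and 3 and 7757 CPM in blank 2. The unnumbered blank library held 574 CPM of 8 proliferation genes, against 48.9 to 50.6 CPM in dopamine libraries and 64.5 and 74.5 CPM in the other blank libraries. Dopamine 1 held 940.2 CPM of 14 fibroblast and pericyte genes, against 2338 and 3629 CPM in the other dopamine libraries and 2588 to 3774 CPM in blank libraries. The sum of 9 neuron markers was 512 CPM in dopamine 1 and 439.9 CPM in blank 3, against 149 to 177 CPM in the other 4 libraries. That of the renal tubule markers was 439 CPM in dopamine 1 and 368 CPM in blank 3, against 144 to 215 CPM in the others.

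No member passed the test between dopamine and blank. By edgeR's quasi-likelihood test with Benjamini-Hochberg adjustment over all 15420 genes tested, 0 of the 46 expressed members were called at an adjusted p of 0.05, as were 0 genes in all (0%), and the smallest adjusted p was 0.9997. An unadjusted p under 0.05 was found for 8 members, where 2.94% of all genes tested had one: 7 lower with dopamine (1.9% of all genes) and 1 higher (1.04% of all genes). In 8 of the 46 (17.4%) all dopamine values lay below all blank values, against 4.47% of all genes tested, and in 1 (2.17%) all lay above, against 4% of all genes tested. The 8 were Mmp16, Adam19, Adamts2, Adamts6, Adamts10, Adamts12, Adamtsl3 and Timp2, and the 1 was Mmp28, where 8.48% of all genes tested had groups that did not overlap in either direction. Some marker lists lay on the lower side as well: 11 of 14 fibroblast and pericyte genes (median -0.52) and 8 of 8 proliferation genes (median -2.99). The proliferation sum was by far highest in the unnumbered blank library, as given above, but all blank sums lay above all dopamine sums. Of the 8 proliferation genes, 3 had all dopamine values below all blank values, where 4.47% of all genes tested did. By edgeR, 5 of the 8 had an unadjusted p under 0.05 and were lower, where 1.9% of all genes were. Of the endothelium genes tested, 2 of 3 were lower, and 1 had all dopamine values below all blank values. Other lists lay mostly higher: 8 of 11 astrocyte, 6 of 8 neuron, 4 of 5 oligodendrocyte lineage, 5 of 8 renal tubule and 3 of 4 leukocyte genes. Among these, 1 leukocyte gene had all dopamine values above all blank values, where 4% of all genes tested did. Clear cell renal carcinoma genes split into 3 higher and 3 lower. Of the 14 fibroblast and pericyte genes, 1 had all dopamine values below all blank values, where 4.47% of all genes tested did. This gene was Pdgfra, at 10.4, 14.1 and 11.01 CPM with dopamine, against 24.5, 20.9 and 21.4 CPM in blank. Its log2 fold change was -0.91 ± 0.23 SE (unadjusted p = 0.00556 and adjusted p = 0.9997 by edgeR). The part of these marker lists in the members' values was not tested. In a check added after the data were seen, leaving out dopamine 1, 2 or 3 gave 13, 9 and 9 members below, where 13.8%, 6.39% and 7.45% of all genes lay below. Leaving out blank 2, blank 3 or the unnumbered blank library gave 8, 9 and 12 members below, where 8.16%, 8.18% and 9.79% of all genes did. The 8 named members were among them each time, which is fixed in advance, because leaving out a library cannot undo a separation. Members above numbered 2, 1 and 5 without dopamine 1, 2 or 3 (14.5%, 6.74% and 6.52% of all genes) and 2 each without blank 2, blank 3 or the unnumbered blank library (7.81%, 8.53% and 9.73%). The median log2 fold change was -0.13 over the members and 0.012 over all genes tested, with 28 members (60.9%) on the lower side, where 48.3% of all genes were, and 18 on the higher side.

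DESeq2, run as an alternative, called 20 genes in all (0.13%), and 2 of them were members: Mmp16 and Adamts12, each at an adjusted p of 0.0185. Over all alternatives the adjusted p of Mmp16 ran from 0.0185 to 1 and that of Adamts12 from 0.0185 to 0.9999. The limma fit, run on log2(FPKM + 1) of 12506 genes, made no call (0%), and of the 33 members it tested 7 had an unadjusted p under 0.05. In bulk RNA, fewer cells of a type and less RNA per cell cannot be told apart.

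**Figure D1:**
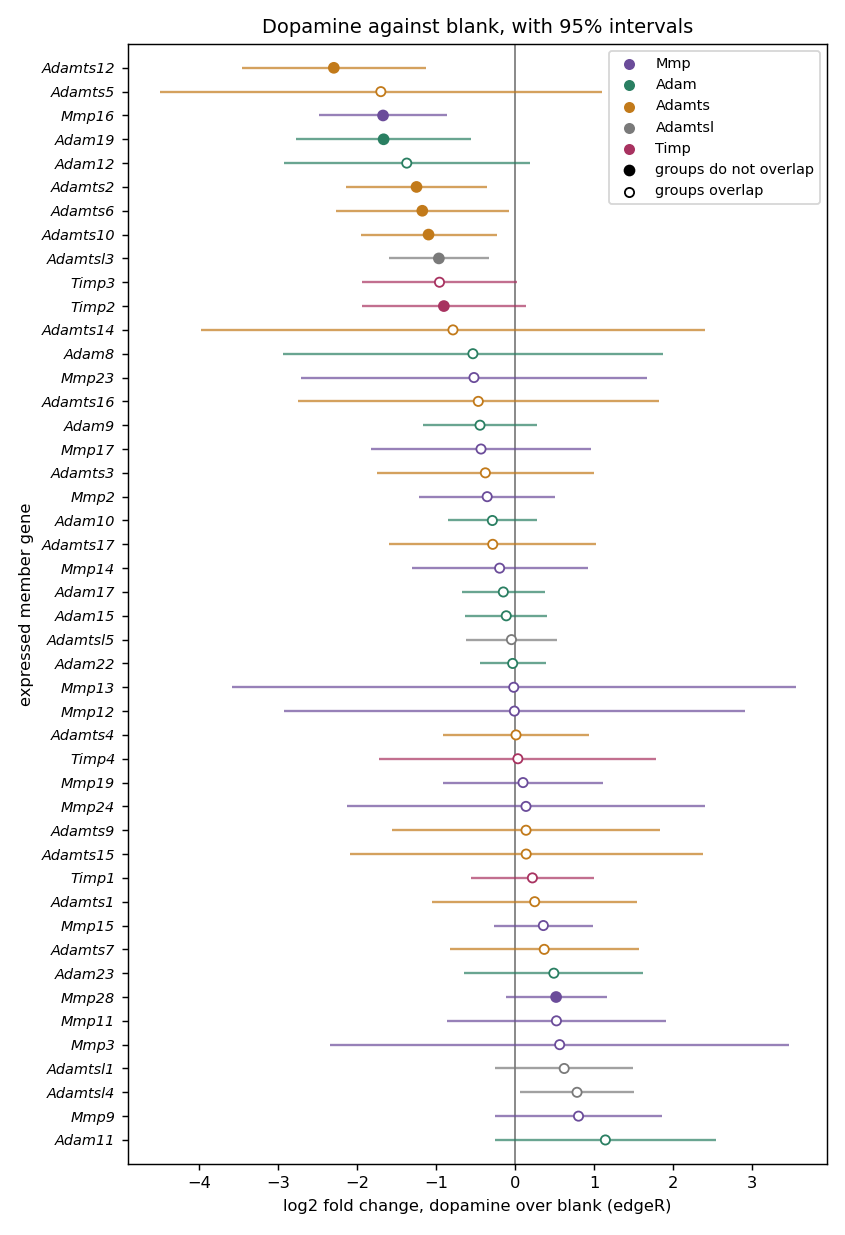
Log2 fold change of dopamine over blank for the 46 expressed members (x axis; edgeR, 3 libraries each), ordered from lowest at the top to highest at the bottom and coloured by subfamily, with lines for the 95% interval. Filled points mark the 8 members with all dopamine values below all blank values and Mmp28, where all lay above; Adamts12 is lowest at -2.30 and Adam11 highest at 1.14.

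Levels between genes were compared as FPKM, which divides counts by exonic length and library total. The inhibitors stood at the top: Timp1 averaged 569 FPKM over the 6 libraries, Timp2 327 FPKM and Timp3 155 FPKM. The most abundant proteases were Mmp2 (68.7 FPKM), Adam9 (65.0 FPKM), Mmp14 (35.5 FPKM), Adam10 (33.7 FPKM) and Adamts1 (30.4 FPKM). Ranges over libraries overlapped between neighbours in this order except that Adam9 (46.4 to 109.7 FPKM) lay above Adam10 (24.5 to 43.8 FPKM), with Mmp14 (15.7 to 48.7 FPKM) between them in the mean. In all, 14 members averaged 10 FPKM or more, 22 lay between 1 and 10 FPKM, and 10 lay under 1 FPKM, Adamts12 among them at 0.343 FPKM. The summed FPKM of the 4 Timp genes was 892, 829.7 and 1058 in dopamine 1, 2 and 3 and 1089, 1060.0 and 1387 in blank 2, in blank 3 and in the unnumbered library. The 14 Mmp genes together reached 95.9 to 229 FPKM and the 14 Adamts genes 35.8 to 135 FPKM.

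**Figure D2:**
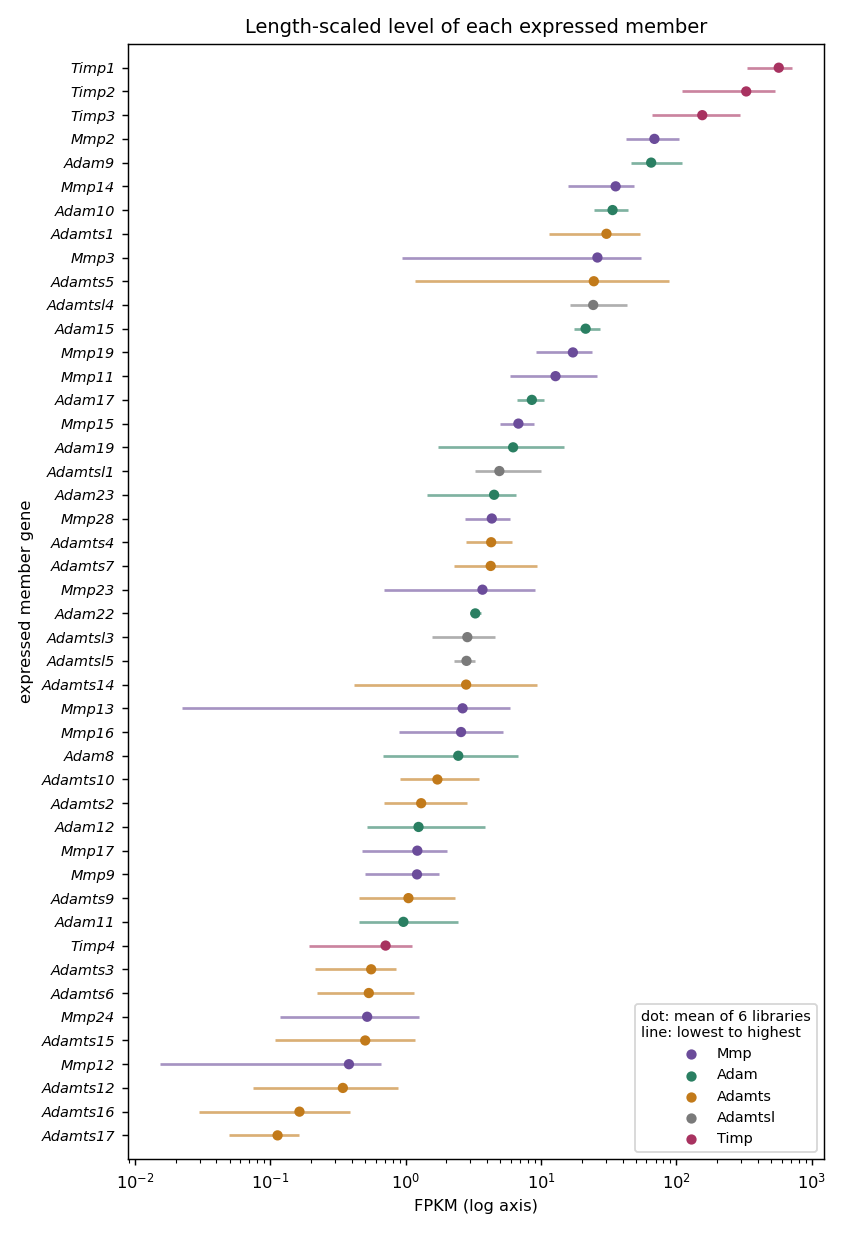
Length-scaled level (FPKM, log axis) of the 46 expressed members, ordered by mean. Dots are means over 6 libraries and lines run from the lowest to the highest library; Timp1, Timp2 and Timp3 are the 3 highest, and the lines of Mmp3, Mmp12, Mmp13 and Adamts5 are the longest.

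Members varied more between libraries than most genes. The highest library was at least 3 times the lowest for 30 of 46 members (65.2%), against 31.8% of all genes tested, and at least 10 times the lowest for 9 members (19.6%), against 8.31%. Dopamine 1 was the lowest of the 6 libraries for 18 members (39.1%, against 22.4% of all genes tested) and blank 3 the highest for 14 (30.4%, against 14.9%). These shares describe the libraries and were not tested. Expressed members with 3 or fewer counts in a library were Mmp12, with 2 counts in blank 3, and Mmp13, with 1 count in dopamine 1.

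**Figure D3:**
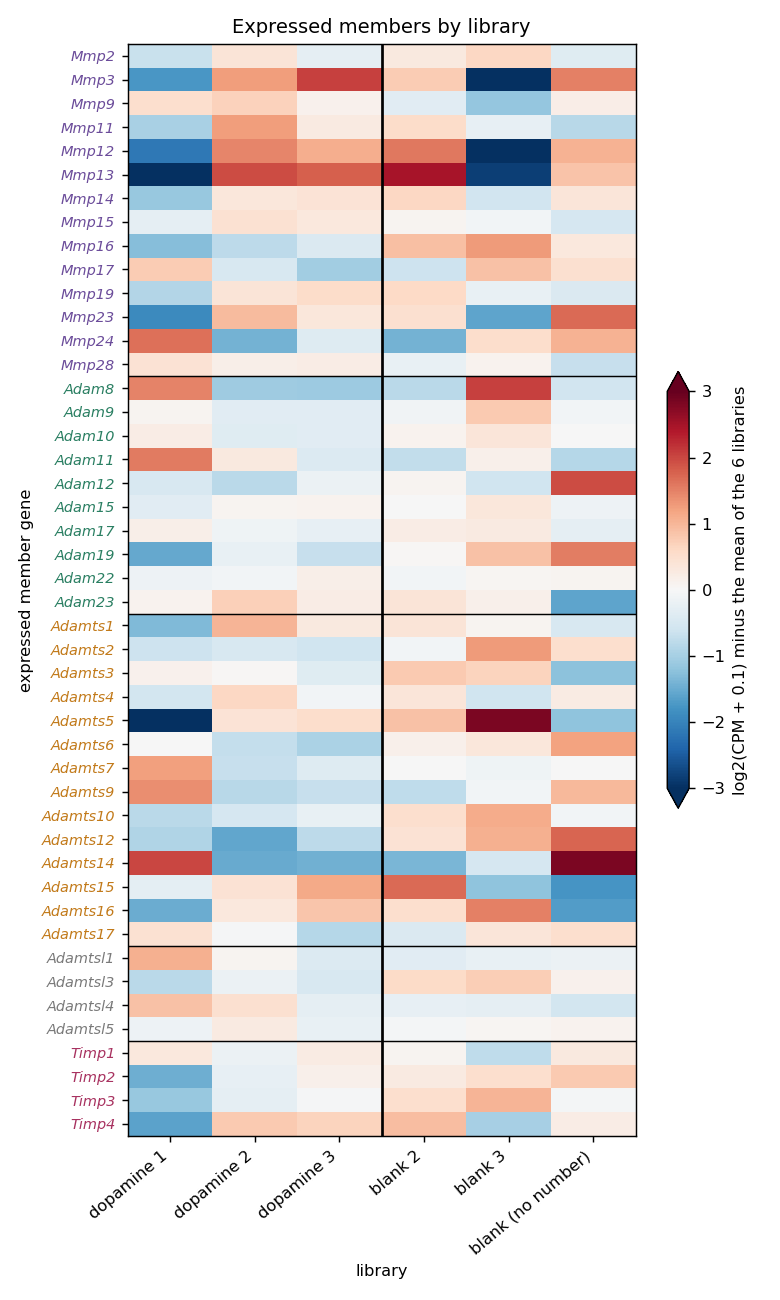
Expressed members (rows, grouped by subfamily) in the 6 libraries (columns, dopamine left of the line), as log2(CPM + 0.1) minus the gene's mean over the 6 libraries. Dopamine 1 is blue (low) for Mmp3, Mmp12, Mmp13, Adamts5 and Timp2, and blank 3 shares the low values of Mmp3, Mmp12 and Mmp13 but holds the highest Adamts5.

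Among the membrane-type MMPs, which are anchored at the cell surface and activated inside the cell, Mmp16 (MT3-MMP, an activator of the Mmp2 zymogen) was the member with the smallest p of the family. Mmp16 stood at 7.45, 10.6 and 13.6 CPM in dopamine 1, 2 and 3, against 34.1, 44.2 and 22.9 CPM in the blank 2, blank 3 and unnumbered libraries. All dopamine libraries lay below all blank libraries, and means were 10.6 ± 3.07 CPM with dopamine and 33.7 ± 10.7 CPM in blank (SD, n = 3 each). The log2 fold change was -1.67 ± 0.34 SE (95% interval -2.48 to -0.87; edgeR adjusted p = 0.9997, unadjusted p = 0.00175). It stayed on the lower side in each alternative, from -1.90 to -1.16, and was -1.48 without dopamine 1 and -1.89 without the unnumbered blank library. In the deposited table (GRCm39) Mmp16 (ENSMUSG00000028226) spans 17852893 to 18119145 of chromosome 4, and these coordinates are the whole gene. Mmp14 (MT1-MMP), the main cell-surface activator of Mmp2 and a collagenase in its own right, was far more abundant, at 35.5 FPKM against 2.56 FPKM for Mmp16. It stood at 90.0, 247 and 260.4 CPM in dopamine 1, 2 and 3, against 301, 132 and 253 CPM in the blank 2, blank 3 and unnumbered libraries. Dopamine 1 and blank 3 held the lowest values and the groups overlapped (-0.20 ± 0.47 SE, 95% interval -1.31 to 0.92). Mmp15 (MT2-MMP) was at 29.9, 49.8 and 45.0 CPM with dopamine, against 38.0, 34.2 and 25.3 CPM in blank (0.36 ± 0.27 SE). Mmp17, anchored by a lipid, lay at 3.32 to 12.99 CPM and Mmp24 at 0.574 to 5.62 CPM, but Mmp24 shares its span with BC029722 on the opposite strand, which had 4671 counts over the 6 libraries against 272 for Mmp24, and without strand those reads cannot be told apart. Of the 5 membrane-type genes tested, 1 had an unadjusted p under 0.05 (Mmp16, lower), 3 lay on the lower side and 2 on the higher side.

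The gelatinases cut denatured collagen and basement membrane collagen. Mmp2 was the highest MMP at 42.6 to 104 FPKM. In CPM it read 138, 289 and 185 CPM in dopamine 1, 2 and 3, against 271, 341 and 171 CPM in the blank 2, blank 3 and unnumbered libraries. The highest value was in blank 3 and the lowest in dopamine 1, with overlap between groups (-0.36 ± 0.36 SE, 95% interval -1.22 to 0.51). Mmp9, the other gelatinase, stayed low at 5.62, 6.45 and 4.32 CPM with dopamine, against 3.12, 1.71 and 4.55 CPM in blank (0.80 ± 0.45 SE), and its groups overlapped. Mmp28 (epilysin), a secreted MMP, was the single member with all dopamine values above all blank values. It stood at 22.1, 18.3 and 19.0 CPM in dopamine 1, 2 and 3, against 14.0, 17.4 and 10.02 CPM in the blank 2, blank 3 and unnumbered libraries. The log2 fold change of 0.52 ± 0.27 SE had a 95% interval -0.12 to 1.16, and 1700020L24Rik on the opposite strand had 372 counts against 1993 for Mmp28. Mmp19 lay at 31.4, 75.2 and 84.4 CPM with dopamine, against 86.9, 49.0 and 42.7 CPM in blank with overlapping groups, and Mmp11 (stromelysin-3) at 15.8 to 74.6 CPM. Both overlap a gene on the opposite strand (Tmem198b with 2647 counts against 7414 for Mmp19, and Chchd10 with 9436 against 4427 for Mmp11). Mmp23 ranged over 1.55 to 20.0 CPM, with its highest value in the unnumbered blank library and its lowest in dopamine 1.

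Mmp3, Mmp12 and Mmp13 lie in one cluster on chromosome 9 and were low in the same libraries, 1 of each group. They encode stromelysin-1, macrophage elastase and collagenase-3, and Mmp12 and Mmp13 were chosen here after their values were seen. In the deposited table (GRCm39) Mmp13 spans 7272514 to 7283331 of chromosome 9, Mmp12 7344381 to 7369499 and Mmp3 7445822 to 7455975, all on the plus strand, with Mmp1b (2 counts over the 6 libraries), on the minus strand, overlapping the end of Mmp12 and lying before Mmp3. Mmp3 stood at 7.45, 59.6 and 104 CPM in dopamine 1, 2 and 3, against 42.5, 1.66 and 71.7 CPM in the blank 2, blank 3 and unnumbered libraries. Mmp13 read 0.0573, 11.4 and 10.1 CPM with dopamine, against 16.4, 0.321 and 5.22 CPM in blank, listed in the same order. Dopamine 1 and blank 3 were the lowest libraries for all 3 genes, Mmp12 included (0.107 to 4.98 CPM), and each group held both low and high libraries. The fold from the lowest to the highest library was 62.8 for Mmp3, so its log2 fold change between groups, 0.56 ± 1.23 SE, had a 95% interval -2.34 to 3.47. It was -0.21 without dopamine 3, 1.08 without dopamine 1 and 1.89 over the 4 libraries numbered 2 and 3. Several macrophage genes were lowest in the same pair of libraries: Lyz2 stood at 0.917, 38.3 and 32.9 CPM with dopamine, against 34.02, 0.588 and 13.2 CPM in blank and Adgre1 at 0.459, 3.53 and 4.73 CPM with dopamine, against 4.92, 0.160 and 1.15 CPM in blank. Csf1r, Ptprc and Itgam stayed below 1 CPM, and the lowest values of each were also those of dopamine 1 and blank 3. Leukocyte markers were below 1 CPM in all libraries for 9 of 12. Their sum, 86.2 to 172 CPM with dopamine and 35.7 to 80.2 CPM in blank, had Cd68 as its largest part, at 84.6, 128 and 62.9 CPM with dopamine, against 39.5, 55.0 and 19.7 CPM in blank. The neuron and renal tubule sums given above were high in dopamine 1 and blank 3. The part of such cells in the values of the 3 genes was not tested. The other cluster genes were not expressed by the count rule, and Mmp10 had 64 of its 89 counts in the unnumbered blank library.

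**Figure D4:**
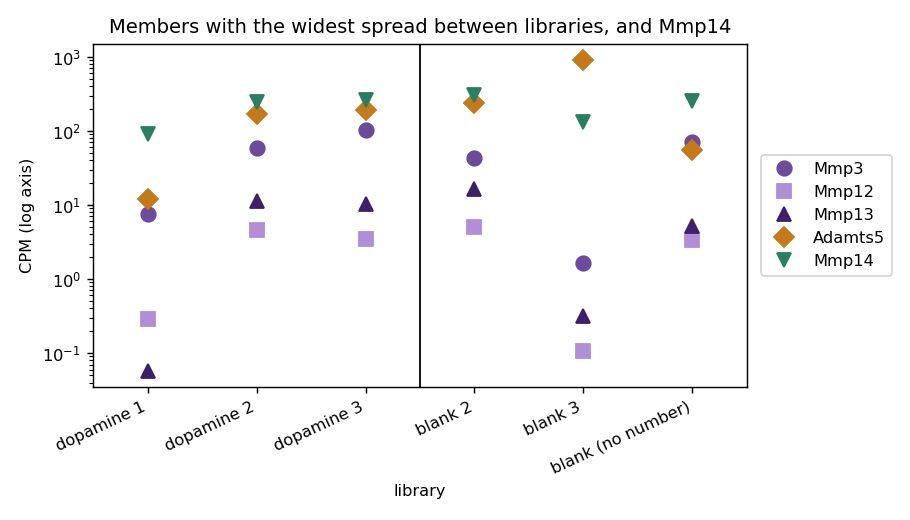
CPM (log axis) of Mmp3, Mmp12, Mmp13 and Adamts5, and Mmp14 in each library (dopamine left of the line). The 3 chromosome 9 genes are lowest in dopamine 1 and blank 3, whereas Adamts5 is lowest in dopamine 1 and highest in blank 3.

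The RefSeq promoters of these 3 genes (GRCm38.p6, from 250 bases before to 50 after the annotated start) are shown because the genes were low in the same libraries. They lie at chr9:7445572-7445871 (+ strand) for Mmp3, chr9:7347124-7347423 (+ strand) for the second annotated start of Mmp12 and chr9:7272264-7272563 (+ strand) for Mmp13. Capitals mark matches to TGANTCA, the AP-1 motif bound by Fos and Jun dimers, and to TATAAA, the TATA box, on either strand; the 2 motifs do not overlap here.
Mmp3: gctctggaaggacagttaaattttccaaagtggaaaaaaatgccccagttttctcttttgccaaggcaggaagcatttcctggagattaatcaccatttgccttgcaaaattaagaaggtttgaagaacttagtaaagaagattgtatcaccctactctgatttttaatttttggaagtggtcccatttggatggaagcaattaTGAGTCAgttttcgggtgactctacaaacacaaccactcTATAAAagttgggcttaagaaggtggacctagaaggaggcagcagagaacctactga
Mmp12: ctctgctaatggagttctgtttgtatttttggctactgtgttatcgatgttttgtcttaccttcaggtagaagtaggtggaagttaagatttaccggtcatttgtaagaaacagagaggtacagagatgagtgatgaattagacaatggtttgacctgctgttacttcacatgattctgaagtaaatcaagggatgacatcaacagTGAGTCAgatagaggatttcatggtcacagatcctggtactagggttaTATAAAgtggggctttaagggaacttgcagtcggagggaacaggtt
Mmp13: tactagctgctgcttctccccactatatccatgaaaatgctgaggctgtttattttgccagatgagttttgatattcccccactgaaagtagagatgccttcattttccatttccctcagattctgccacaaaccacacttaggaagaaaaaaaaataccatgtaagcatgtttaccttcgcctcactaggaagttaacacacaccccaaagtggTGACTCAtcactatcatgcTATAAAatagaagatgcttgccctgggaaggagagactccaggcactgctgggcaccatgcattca
The AP-1 match began 46 bases before the start in Mmp3, 44 in Mmp12 and 35 in Mmp13. The TATAAA match began 7 bases before the start in Mmp3, 16 in Mmp13 and at -4, past the start, in Mmp12. The first annotated start of Mmp12 held neither motif. Of 32851 promoters in the table, 7.81% held a TGANTCA match and 13.6% a TATAAA match. RefSeq promoters matched 30 of the 46 expressed members, with 34 starts, and 4 of these starts held a TGANTCA match: Mmp3, Mmp12, Mmp13 and Adam19. A match is a description of these letters and not a measured site.

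Of the transcription factors listed as partners (AP-1, ETS, NF-kappaB, Smad and Runx genes), 0 of 17 were called, 11 lay on the higher and 6 on the lower side, and the median was 0.10. Fos, an AP-1 subunit, was at 19.1, 11.7 and 5.09 CPM with dopamine, against 30.2, 55.8 and 17.5 CPM in blank (-1.53 ± 0.58 SE, unadjusted p = 0.0337), with overlapping groups. Jun read 413, 140.3 and 119.7 CPM with dopamine, against 99.3, 162 and 366 CPM in blank, with dopamine 1 and the unnumbered blank library high. Fosl1 was at 24.3, 4.55 and 4.55 CPM with dopamine, against 3.01, 2.30 and 21.4 CPM in blank and was high in the same pair of libraries.

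Of the 10 expressed ADAM genes, 7 encode active proteases and all 7 lay on the lower side with a median of -0.45, but 1 of them had an unadjusted p under 0.05. That gene was Adam19 (meltrin beta), a sheddase of neuregulin. Adam19 stood at 11.8, 29.4 and 21.3 CPM in dopamine 1, 2 and 3, against 35.0, 63.8 and 99.7 CPM in the blank 2, blank 3 and unnumbered libraries. The groups did not overlap, with means of 20.8 ± 8.83 CPM with dopamine and 66.2 ± 32.4 CPM in blank (SD, n = 3 each) and a log2 fold change of -1.67 ± 0.47 SE (95% interval -2.78 to -0.56; edgeR adjusted p = 0.9997, unadjusted p = 0.00936). Its highest value was in the unnumbered blank library, without which it was -1.24, and it was -0.97 over the 4 libraries numbered 2 and 3. Adam12 (meltrin alpha), its close relative, read 7.11, 5.66 and 8.78 CPM with dopamine, against 10.53, 6.52 and 38.8 CPM in blank. The unnumbered blank library alone was high, and without it the log2 fold change of -1.37 ± 0.66 SE became -0.25. The proliferation markers were high in that library too, and their part in these values was not tested.

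The abundant sheddases had a highest library at most 2.16 times the lowest. Adam10, which cuts Notch receptors and the amyloid precursor protein, stood at 190.5, 127 and 128 CPM in dopamine 1, 2 and 3, against 174, 209 and 161 CPM in the blank 2, blank 3 and unnumbered libraries. Dopamine 2 and dopamine 3 were lowest and blank 3 highest, with overlap through dopamine 1 (-0.29 ± 0.24 SE, 95% interval -0.85 to 0.27). Adam17, which releases tumour necrosis factor and EGF receptor ligands, lay at 68.2, 55.0 and 50.5 CPM with dopamine, against 70.0, 72.5 and 50.3 CPM in blank (-0.15 ± 0.22 SE), and Iah1 on the opposite strand had 1380 counts against its 7160. Adam15 was at 103 to 164 CPM (-0.11 ± 0.22 SE, 95% interval -0.63 to 0.40). Adam9, a sheddase with the highest FPKM of the subfamily, read 269, 203 and 203 CPM with dopamine, against 238, 438 and 244 CPM in blank (-0.45 ± 0.30 SE), with blank 3 high. Adam8, best known from leukocytes, was at 20.4 CPM in dopamine 1 and 30.4 CPM in blank 3, and at 3.37 to 4.79 CPM in the other 4 libraries. Mmp3, Mmp12 and Mmp13 were low, and the neuron and renal tubule sums high, in that pair. Those sums rest largely on Map2 and on Lrp2 and Aqp1, and the part of such cells was not tested.

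ADAMs without protease activity, Adam11, Adam22 and Adam23, bind LGI proteins or integrins at the surface of neural cells, and all 3 were expressed. Adam22 had the smallest ratio of highest to lowest library of the 46 members, 1.25, at 42.1 to 52.5 CPM. Adam23 read 79.1, 120.3 and 85.9 CPM with dopamine, against 96.7, 82.1 and 24.5 CPM in blank, low in the unnumbered blank library alone (0.49 ± 0.48 SE). Adam11 stood at 13.4, 5.57 and 3.37 CPM with dopamine, against 2.66, 4.97 and 2.44 CPM in blank (1.14 ± 0.59 SE, 95% interval -0.26 to 2.54), the highest log2 fold change among members, with dopamine 1 high; without dopamine 1 it was 0.41. Of the 33 Adam genes, 23 were not expressed, 8 of them with no count in any library. Those with the most counts among these 23 were Adam33 (70 counts over 6 libraries) and Adam1a (47 counts); many of the rest are known as testis genes.

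Adamts12, a metalloprotease known to cut cartilage oligomeric matrix protein (COMP), had the lowest log2 fold change of all 46 members, from low counts. It stood at 1.38, 0.840 and 1.501 CPM in dopamine 1, 2 and 3, against 3.59, 5.66 and 9.06 CPM in the blank 2, blank 3 and unnumbered libraries. These are 24, 19 and 33 counts with dopamine, against 62, 106 and 189 counts in blank. All dopamine values lay below all blank values (-2.30 ± 0.49 SE, 95% interval -3.46 to -1.13; edgeR adjusted p = 0.9997, unadjusted p = 0.00229). The unnumbered blank library was highest, and without it the value was -1.90. On the log2(FPKM + 1) scale, which understates low genes, it was -0.49. Its near relative Adamts7, which also cuts COMP, did not share the pattern: it read 56.4, 14.7 and 18.1 CPM with dopamine, against 23.7, 21.6 and 23.7 CPM in blank, with dopamine 1 high (0.37 ± 0.51 SE, and -0.49 without dopamine 1). Adamts7 overlaps Tbc1d2b on the opposite strand, which had 8604 counts against its 3022. Comp itself lay at 0.405 to 2.08 CPM.

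Adamts12 (ENSMUSG00000047497) spans 11064876 to 11349317 of chromosome 15 and Adam19 (ENSMUSG00000011256) 45946819 to 46038170 of chromosome 11 in the deposited table (GRCm39). Their RefSeq promoters (GRCm38.p6) are shown as examples of the members with all dopamine values below all blank values. They lie at chr15:11064523-11064822 (+ strand) for Adamts12 and chr11:46055734-46056033 (+ strand) for the second of 3 annotated starts of Adam19, with the same motifs in capitals.
Adamts12: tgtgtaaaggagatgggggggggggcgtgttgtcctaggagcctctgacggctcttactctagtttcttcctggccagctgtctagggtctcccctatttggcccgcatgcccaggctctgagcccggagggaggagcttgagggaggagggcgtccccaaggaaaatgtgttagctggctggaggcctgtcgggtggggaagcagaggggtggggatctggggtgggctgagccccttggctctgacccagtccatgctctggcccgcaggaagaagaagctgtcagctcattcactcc
Adam19: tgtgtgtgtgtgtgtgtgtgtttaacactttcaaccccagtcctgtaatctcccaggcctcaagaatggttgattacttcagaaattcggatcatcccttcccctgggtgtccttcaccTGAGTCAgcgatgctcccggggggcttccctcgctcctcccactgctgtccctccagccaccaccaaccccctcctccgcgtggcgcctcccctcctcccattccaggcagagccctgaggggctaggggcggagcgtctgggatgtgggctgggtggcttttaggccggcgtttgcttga
No letters of the Adamts12 window matched TGANTCA or TATAAA, and in the Adam19 window the TGANTCA match began 131 bases before the start. The other annotated starts of Adam19 held neither motif. Adamts2, Adamtsl3 and Timp2 also had all dopamine values below all blank values, and their windows, not shown, held neither motif. Mmp16, Adamts6 and Adamts10 had no RefSeq promoter here. The motif is therefore not a shared trait of these members.

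**Figure D5:**
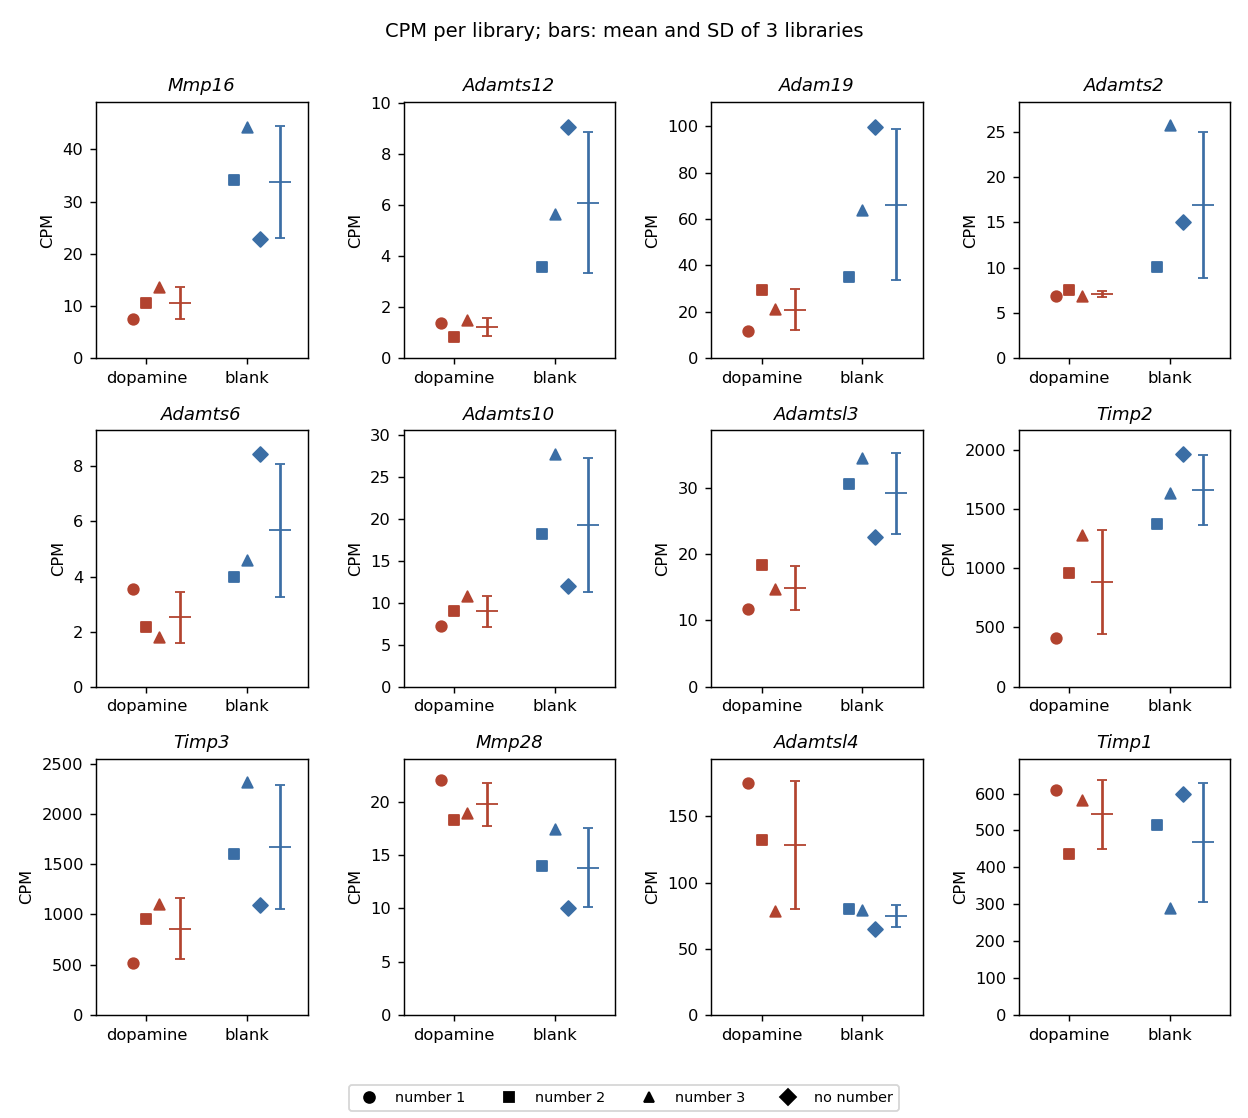
CPM per library for 12 members, with dopamine (red) left of blank (blue); symbols give the library number, and the bars at the right of each group show the mean and SD of 3 libraries. Mmp16, Adamts12, Adam19, Adamts2, Adamts6, Adamts10, Adamtsl3 and Timp2 have all dopamine points below all blank points, Mmp28 has them above, and Timp3, Adamtsl4 and Timp1 overlap.

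The 3 procollagen-processing proteases, Adamts2, Adamts3 and Adamts14, all lay on the lower side, and 1 had an unadjusted p under 0.05 by edgeR. They remove the amino-terminal propeptides of fibrillar collagens. Adamts2 stood at 6.88, 7.51 and 6.91 CPM in dopamine 1, 2 and 3, against 10.01, 25.7 and 15.0 CPM in the blank 2, blank 3 and unnumbered libraries. The 3 dopamine libraries lay within 0.356 CPM (SD) of their mean of 7.10 CPM, and blank libraries averaged 16.9 ± 8.02 CPM (-1.25 ± 0.38 SE; edgeR adjusted p = 0.9997, unadjusted p = 0.0129). Without blank 3, the highest, the log2 fold change was -0.81. Adamts3 was at 1.10 to 4.80 CPM. Adamts14 ranged over 2.21 to 46.0 CPM: it was high in dopamine 1 and the unnumbered blank library and at most 4.49 CPM elsewhere. Their substrate genes, by comparison, showed Col1a1 at 266, 725 and 1257 CPM with dopamine, against 1086, 1257 and 768 CPM in blank (-0.47 ± 0.54 SE) and Col1a2 at 106, 473 and 829 CPM with dopamine, against 1106, 362 and 646 CPM in blank (-0.59 ± 0.73 SE), with overlapping groups.

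The proteoglycan-cleaving ADAMTS genes held the largest range of the subfamily. Adamts5, the main aggrecan-cleaving enzyme of mouse cartilage, stood at 12.1, 171 and 189 CPM in dopamine 1, 2 and 3, against 237, 918 and 55.7 CPM in the blank 2, blank 3 and unnumbered libraries. Blank 3 was about 75.9 times dopamine 1, and the other 4 libraries lay between with overlap of the groups (-1.70 ± 1.18 SE, 95% interval -4.50 to 1.10). Without blank 3 the value was -0.24. Adamts1, on the same chromosome as Adamts5, read 58.4, 297 and 177 CPM with dopamine, against 190.1, 155 and 104 CPM in blank (0.25 ± 0.55 SE), lowest in dopamine 1 and highest in dopamine 2. Adamts4 was at 13.4, 30.4 and 18.5 CPM with dopamine, against 25.5, 13.04 and 23.4 CPM in blank, overlapping, and these values are uncertain because the counting is not stated to use strand. Of the others in this class, Adamts9 lay at 7.07 to 33.6 CPM (A730049H05Rik on the opposite strand had 728 counts against its 1784) and Adamts15 at 1.05 to 12.7 CPM. The class had 0 called and 0 genes at an unadjusted p under 0.05 among 5, with 4 on the higher side. Of their proteoglycan substrates, Vcan (versican) was at 160.4, 50.9 and 42.2 CPM with dopamine, against 72.6, 138 and 162 CPM in blank, Ncan (neurocan) at 656, 210.4 and 234 CPM with dopamine, against 216, 292 and 1028 CPM in blank and Bcan (brevican) at 33.5, 96.8 and 60.5 CPM with dopamine, against 44.8, 34.9 and 8.63 CPM in blank, each with overlapping groups.

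Adamts6 and Adamts10, a related pair that acts on fibrillin microfibrils, both had all dopamine values below all blank values, and were named after their values were seen. Adamts10 stood at 7.16, 8.97 and 10.8 CPM in dopamine 1, 2 and 3, against 18.1, 27.7 and 11.9 CPM in the blank 2, blank 3 and unnumbered libraries. The gap between the groups was narrow, from dopamine 3 to the unnumbered blank library (-1.10 ± 0.36 SE, 95% interval -1.96 to -0.24, unadjusted p = 0.0195; adjusted p = 0.9997 by edgeR). Adamts6 read 3.55, 2.17 and 1.82 CPM with dopamine, against 3.99, 4.60 and 8.44 CPM in blank (-1.18 ± 0.46 SE, 95% interval -2.27 to -0.082, unadjusted p = 0.0386; adjusted p = 0.9997 by edgeR). Without the unnumbered blank library, its highest, it was -0.77. Fbn1, which encodes fibrillin-1, was at 53.5, 72.8 and 73.1 CPM with dopamine, against 129, 249 and 131 CPM in blank, also without overlap (-1.35 ± 0.32 SE). Adamts16 and Adamts17 were at or below 2.57 CPM.

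Of the 4 expressed ADAMTS-like genes, 1 had all dopamine values below all blank values and the others overlapped. Adamtsl3 (punctin-2) stood at 11.7, 18.3 and 14.8 CPM in dopamine 1, 2 and 3, against 30.6, 34.5 and 22.5 CPM in the blank 2, blank 3 and unnumbered libraries. Means were 14.9 ± 3.30 CPM with dopamine and 29.2 ± 6.09 CPM in blank (SD, n = 3 each; -0.97 ± 0.27 SE, 95% interval -1.60 to -0.33; edgeR adjusted p = 0.9997, unadjusted p = 0.00880), and over all alternatives the value ran from -1.15 to -0.74. Adamtsl4, a fibrillin-binding protein and the most abundant of the 4 at 24.3 FPKM, read 175, 132 and 78.6 CPM with dopamine, against 80.1, 79.0 and 65.1 CPM in blank. Its groups touched through dopamine 3, and it was the single member at an unadjusted p under 0.05 (0.0367; adjusted p = 0.9997 by edgeR) on the higher side (0.78 ± 0.30 SE). Without dopamine 1 it was 0.50. Adamtsl1 (punctin-1) was at 122, 61.0 and 43.9 CPM with dopamine, against 45.8, 49.8 and 51.7 CPM in blank, high in dopamine 1 alone (0.62 ± 0.37 SE, and 0.10 without it). Adamtsl5 lay at 11.3 to 15.9 CPM, and Adamtsl2 was not expressed.

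None of the 4 inhibitors passed the test; 2 lay on the lower side (Timp2 and Timp3) and 2 on the higher side (Timp1 and Timp4). Timp2, which inhibits MMPs and also joins Mmp14 in activating Mmp2, stood at 415, 961 and 1284 CPM in dopamine 1, 2 and 3, against 1375, 1638 and 1965 CPM in the blank 2, blank 3 and unnumbered libraries. All dopamine values lay below all blank values, though dopamine 3 and blank 2 were near each other (-0.90 ± 0.44 SE, 95% interval -1.94 to 0.14; edgeR adjusted p = 0.9997, unadjusted p = 0.0789). Timp3, which binds the matrix and also inhibits ADAM17 and ADAMTS proteases, stood at 517, 950.3 and 1108 CPM in dopamine 1, 2 and 3, against 1605, 2313 and 1090.1 CPM in the blank 2, blank 3 and unnumbered libraries. It overlapped by dopamine 3 and the unnumbered blank library (-0.96 ± 0.42 SE, 95% interval -1.94 to 0.025; unadjusted p = 0.0546, adjusted p = 0.9997 by edgeR). Dopamine 1 was lowest for both, and without it the log2 fold changes were -0.56 for Timp2 and -0.70 for Timp3. Over the 4 libraries numbered 2 and 3 the value of Timp2 was -0.43. The fibroblast and pericyte sum was also lowest in dopamine 1, where Col1a1, Col1a2, Col3a1, Dcn and Lum were lowest. Other markers of that list were not lowest there: Tagln was at 140.4, 26.3 and 52.1 CPM with dopamine, against 56.8, 44.1 and 445 CPM in blank and Thy1 at 222, 284 and 258 CPM with dopamine, against 191, 435 and 127 CPM in blank. Their part was not tested.

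Timp1, an inducible inhibitor of many MMPs, read 611, 437 and 584 CPM with dopamine, against 515, 289 and 600.0 CPM in blank (0.22 ± 0.33 SE, 95% interval -0.56 to 0.99), with blank 3 lowest. Its share of the summed Timp FPKM was 80.2% in dopamine 1, 57.5% in dopamine 2 and 58.5% in dopamine 3, against 51.3% in blank 2, 31.6% in blank 3 and 51.4% in the unnumbered blank library. The dopamine shares lay above the blank shares without overlap, a description of 3 against 3 libraries with no test. The summed FPKM holds Timp2 and Timp3, given above as lower with dopamine, whereas the CPM of Timp1 itself overlapped between groups. The shares thus restate those values and are no separate result for Timp1. Timp4 stayed at 1.09 to 6.83 CPM and overlaps the synapsin gene Syn2 on the opposite strand, which had 4892 counts against 519, so its values are uncertain. Timp1 and Timp3 also lie over synapsin genes (Syn1 with 2272 counts against 60198, and Syn3 with 404 against 148630). In the deposited table (GRCm39) Timp2 (ENSMUSG00000017466) spans 118191895 to 118246566 of chromosome 11, Timp3 (ENSMUSG00000020044) 86136236 to 86185370 of chromosome 10 and Timp1 (ENSMUSG00000001131) 20736405 to 20740974 of chromosome X.

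Partners of these enzymes gave no call either. Of 100 listed partner genes, 91 were tested, 0 passed in either direction by edgeR and 4 stood at an unadjusted p under 0.05 (2.94% of all genes tested did), with no partner called by DESeq2. Among the 9 tested zymogen activators 2 lay on the higher and 7 on the lower side (median -0.051). Furin, the convertase that activates membrane-type MMPs and ADAMs, was at 102, 89.9 and 63.2 CPM with dopamine, against 77.4, 62.7 and 98.8 CPM in blank (0.093 ± 0.26 SE), and Plau (urokinase) at 22.4, 12.4 and 9.51 CPM with dopamine, against 14.3, 23.4 and 94.8 CPM in blank, high in the unnumbered blank library. Inhibitors other than Timp genes (10 tested) had 3 higher and 7 lower (median -0.23). Reck, a membrane-anchored inhibitor of MMPs, read 11.2, 35.3 and 24.97 CPM with dopamine, against 42.3, 45.5 and 19.4 CPM in blank (-0.59 ± 0.48 SE), lowest in dopamine 1.

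Escorts of ADAM10 and ADAM17 (10 tested) had 6 members on the higher and 4 on the lower side (median 0.17). Tspan15, a tetraspanin partner of ADAM10, was at 62.02, 53.0 and 46.9 CPM with dopamine, against 47.0, 28.5 and 24.4 CPM in blank (0.70 ± 0.29 SE, unadjusted p = 0.0452; adjusted p = 0.9997 by edgeR), overlapping by dopamine 3 and blank 2. Rhbdf2 (iRhom2), which carries ADAM17 to the surface, lay at 20.4 to 59.4 CPM. Substrates that ADAMs shed (24 tested) had 18 higher and 6 lower, with a median of 0.25, where the median of all genes tested was 0.012. Their sum was 9877, 7958 and 7406 CPM with dopamine, against 7732, 7712 and 6383 CPM in blank. Hbegf, an EGF receptor ligand, read 2423, 235 and 136 CPM with dopamine, against 132, 218 and 807 CPM in blank, high in dopamine 1 and the unnumbered blank library. Areg, Ereg, Btc, Tgfa, Nrg1, Notch1, Cx3cl1, Vcam1 and Cdh1 were also highest in dopamine 1. Others were highest elsewhere, such as Tnfrsf1a, Cxcl16 and Sdc4 in dopamine 2. The part of dopamine 1 in the median of this list was not tested. Tnfrsf1b, a tumour necrosis factor receptor, was at 20.0, 47.1 and 32.9 CPM with dopamine, against 21.0, 15.8 and 15.6 CPM in blank (0.93 ± 0.34 SE, unadjusted p = 0.0282; adjusted p = 0.9997 by edgeR). Substrates of ADAMTS proteases (13 tested) had 2 higher and 11 lower (median -0.58). Of them 2, Fbn1 and Bgn, had all dopamine values below all blank values, where 4.47% of all genes tested did. Col1a1, Col1a2, Col3a1 and Dcn are in both this list and the fibroblast and pericyte list, so these lists partly repeat the same values. Inducers and clearance receptors (8 tested) split into 4 higher and 4 lower, among them Lrp1, which takes up protease and inhibitor complexes, at 476, 791 and 588 CPM with dopamine, against 948, 787 and 571 CPM in blank.

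The 38 members that did not reach the count rule were 9 Mmp, 23 Adam, 5 Adamts and 1 Adamtsl genes, and 9 of them had no count in any library. The collagenase genes Mmp1a and Mmp8 had at most 4 and 18 counts in a library, and Mmp7 (matrilysin) at most 3. The Mmp20 and Adam29 genes, among the 9 with no count, could have been present at up to 0.179 CPM in the shallowest library, the limit that 3 counts set. Such limits cover counting error only, because the libraries were amplified and carry no molecular identifiers.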

How the data were processed

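Transcripts were measured by RNA-seq in 3 dopamine and 3 blank libraries of KVTR cells. Libraries were made with SMART-Seq HT and Vazyme kits and read as 150 bp pairs, per the labels' protocols. That chemistry does not mark strand. The authors deposited raw counts, FPKM values and exonic lengths of 56691 genes, per the file headers, and the submitters' processing notes name GRCm39. No source used here names the aligner or counting program. Deposited FPKM of dopamine 2, blank 2 and blank 3 equalled values recomputed from counts, exonic length and library total within 0.005, as did 94.6% of genes in dopamine 1. Recomputed FPKM was used for all libraries, and 2 per-library columns were not used.

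The 15420 genes kept by filterByExpr were TMM-scaled and compared with edgeR 4.0.16's quasi-likelihood test (R 4.3.3), 2-sided, no covariate, with Benjamini-Hochberg adjustment over all genes at a threshold of 0.05. The edgeR fit, DESeq2 1.42.0 and limma 3.58.1 were tested on simulated data. CPM uses TMM-scaled totals, and means are ± SD. Standard errors come from the F statistic (absolute log2 fold change over root F). Members and partner and marker lists were chosen with earlier results of these data known. Named by rule were Mmp16, Adamts12, the Timp genes, the 4 highest Mmp, Adam and Adamts and 2 highest Adamtsl genes by mean FPKM, the 2 of smallest p in each subfamily and any past the adjusted threshold; other members named were chosen after their values were seen. Replicate numbers are not said to pair libraries. Alternatives were another scaling, other filters, DESeq2, limma on FPKM with a pseudocount of 1 or 0.1, leaving out each library, and a replicate block.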

Additional observations from a re-analysis of the deposited data

How the results depend on the processing

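The count of called genes was 0 in each edgeR and limma alternative, leave-one-out included (0 to 0 for all genes, members and partners). DESeq2 called 20 genes, 2 members (Mmp16 at -1.69 and Adamts12 at -2.32) and 0 partners. Of 455 values that could be fitted for the 31 members with a tracked fold change (6 of them chosen after their values were seen: Mmp9, Mmp15, Adam11, Adam23, Adamts6 and Adamts10) under 15 alternatives, 424 kept direction and call and 29 changed sign, 17 of them when 1 library was left out. All 29 belonged to 9 members, none of which had a 95% interval that left out 0. Leaving out each library in turn gave log2 fold changes from -0.21 to 1.37 for Mmp3, -0.47 to 0.15 for Mmp14, -0.15 to 0.46 for Mmp19, -0.21 to 0.039 for Adam15, -0.36 to 0.66 for Adamts1, -0.39 to 0.25 for Adamts4, -0.49 to 0.69 for Adamts7, -0.034 to 0.44 for Timp1, -0.34 to 0.55 for Timp4. Other sign changes were 0.35 for Mmp14 and -0.48 for Adamts7 with the replicate block, and 0.23 and -0.47 over the same 4 libraries without it. Mmp3 kept its sign there, at 2.97 with the block and 1.89 without it. On log2(FPKM + 1) Adamts1 was -0.033 and Adamts4 -0.049, the same with no filter, where Timp4 was -0.021. With a pseudocount of 0.1 Adamts1 was -0.044, Adamts4 -0.061 and Mmp19 -0.0015. The cause of these changes was not tested. The replicate block over the 4 libraries numbered 2 and 3 called 0 genes, 0 members and 0 partners. The labels do not pair libraries, and deviations of same-numbered libraries from their group means correlated at -0.0886 across genes (2 pairs). As counts added after the data were seen, members with all dopamine values below all blank values numbered 8 to 13 and those with all above 1 to 5 when 1 library was left out. The highest of these came without dopamine 1 (13) and without dopamine 3 (5), when fewer libraries must be separated. Such counts cannot fall below those with all libraries kept, because leaving out a library cannot undo a separation. The lowest counts, 2 for Mmp12 in blank 3 and 1 for Mmp13 in dopamine 1, lie under the limit of 3 counts used for depth.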
